A study of Arabidopsis thaliana with 71 samples.

Results

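Arabidopsis thaliana genes for cyclins, cyclin-dependent kinases (CDKs), CDK inhibitors and 2 late mitotic proteins were followed in seedlings of 5 lines at 4 times. The list named 41 loci, picked by their roles in the cell cycle, by a rule that used no measured value except the minimum level below. Earlier results of these data were known when the list was chosen. All 41 are in the deposited table of 22332 genes, and 40 were used because the mean of at least 1 group reached 1 FPKM (fragments per kilobase of transcript, scaled to the number of mapped fragments). CYCA2;1 (AT5G25380) was left out, since its highest group mean was 0.51 FPKM. The 40 genes are 9 B-type cyclins, 6 A-type cyclins, 9 D-type cyclins, 5 kinases, 9 inhibitors, the cytokinesis syntaxin KNOLLE and the anaphase activator CDC20.1.

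The study asks which genes respond when a leaf or meristem transcription factor enters the nucleus. Each of 4 transgenic lines in the Columbia background makes a factor fused to GR, the steroid-binding domain of the glucocorticoid receptor, which holds the protein in the cytoplasm until dexamethasone is supplied. Whole seedlings grown for 7 days in liquid MS medium all received 50 µM dexamethasone, wild type (WT) included, and were frozen 0, 30, 60 and 120 min later. GR-AS2 carries AS2, a factor of leaf polarity, GR-STM carries SHOOT MERISTEMLESS, GR-REV carries REVOLUTA and GR-KAN1 carries KANADI1, whose line is written as KANADI1-GR in one label. The promoter that drives each fusion, the number of independent lines per fusion and whether a library is 1 flask are unstated in the labels used, which give 50 seeds to a flask. WT has 6 libraries at each time. Each transgenic group has 3, except GR-REV at 30 min with 2, which makes 71 libraries. The design text calls all replicates biological.

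A plant cell commits to division when D cyclins bind CDKA;1 and the retinoblastoma-related protein RBR1 is phosphorylated. A cyclins then act through DNA replication and G2, and B cyclins with the plant-specific CDKB kinases act at mitosis. Inhibitors of the KRP family (named for Kip-related protein) and of the SIAMESE family (SIM, SMR1) bind these complexes and slow division or turn cells to endoreduplication, in which DNA is copied without mitosis. In seedlings most dividing cells lie in the root and shoot meristems, in young leaves and in the stomatal lineage.

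All 4 fused genes were high in their own line: AS2 was 119.8 to 425 FPKM in GR-AS2 and at most 6.34 in WT, and STM, REV and KAN1 were likewise at 46.1 FPKM or more in every library of their line and at 5.75 or less in every WT library. Per library, the median gene stood at 4.25 to 4.92 FPKM and 332 to 1136 genes had a listed value of 0. Read totals are unknown. WT replicates 1 to 3 and all transgenic libraries have library codes of 1 series (Ot79), and WT replicates 4 to 6 have codes of 2 others (Ot86 and OtA0). Of replicates 4 to 6, those of 0 and 60 min are Ot86 and those of 120 min are OtA0. At 30 min 2 of them are OtA0 and 1 is Ot86. The WT change from 0 to 120 min, and each line's change beyond it, therefore spans both of these codes. Where replicates 4 to 6 are named together, the codes are pooled. The meaning of these codes is not given, but the WT libraries stand apart by them: over 12 libraries each, 8 of the 40 genes differed by more than 1.5-fold between the WT means of replicates 1 to 3 and 4 to 6. KRP1 was the most different, at 8.68 ± 2.52 FPKM (SD, n = 12) against 17.6 ± 6.45. The code series was therefore a term in the fits reported. Calls of the 40 genes lost without WT replicates 4 to 6 are named as such or counted. For genes outside the 40 this was not examined.

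None of the 40 genes was at 0 in any library. In WT, over all times, the mean level ran from 1.26 ± 0.44 FPKM (SD, n = 24) for CYCD4;2 to 34.4 ± 6.35 for CDKA;1. The highest levels by role were 22.6 ± 4.15 FPKM for CYCB1;2, 10.7 ± 2.99 for CYCA3;2, 15.2 ± 1.21 for CYCD2;1 and 19.5 ± 5.63 for SIM. KNOLLE stood at 19.8 ± 4.07 FPKM and CDC20.1 at 22.2 ± 3.65. The ratio of the highest to the lowest of the 20 group means was 1.43 for CDKA;1 and 6.64 for KRP1, and its median was 2.76 for the inhibitors against 1.75 to 2.18 for the other roles. By these group means, taken without regard to the library codes, the inhibitors held the widest range as well as the most changeable gene. The highest KRP1 group was WT at 120 min, and KRP1 in WT differed by library code as given above.

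Differences were tested with limma on log2(FPKM + 0.5), with p-values adjusted by the Benjamini-Hochberg method over the 19406 genes tested. A difference is called when its adjusted p is under 0.05, and differences below are on that log2 scale, where genes of low level show less than their true ratio. Over 23 comparisons, 55 differences in 32 of the 40 genes were called. All comparisons with WT at a given time share the same WT libraries, so the lines are not independent of each other.

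In WT itself, dexamethasone was followed by no called change. At 30, 60 and 120 min against 0 min, 0 of the 40 genes were called by limma each time, while 2, 1 and 1 had an unadjusted p under 0.05. Of all genes, 0.0567%, 0.0258% and 0.067% were called at these times. The member with the smallest p was KRP5 at 120 min, with an adjusted p of 0.485. The median log2 change of the 40 genes was -0.03 at 30 min and at 60 min.

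Several cyclins, CDKB2 kinases and KNOLLE were lower than in WT at 0 min in GR-AS2, GR-REV or both. In GR-AS2, 8 of the 40 genes were called lower and 0 higher, and 7 of the 8 belong to the 21 genes that comprise A and B cyclins, CDKB kinases, KNOLLE and CDC20.1. Among all genes 5.6% were called lower and 4.7% higher in that comparison. In GR-REV, 6 of the 40 were called lower, all among those 21, and 1 was called higher, against 2.95% and 4.86% of all genes. The median difference of the 21 genes was -0.44 in GR-AS2 and -0.46 in GR-REV, while the median over all genes was 0.00 in both. The sign was negative for 20 of the 21 in each line. It was also negative for 18 of the 21 in GR-STM and 13 in GR-KAN1, where 0 members were called. In whole seedlings, fewer dividing cells and less transcript in each dividing cell cannot be told apart.

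**Figure D1:**
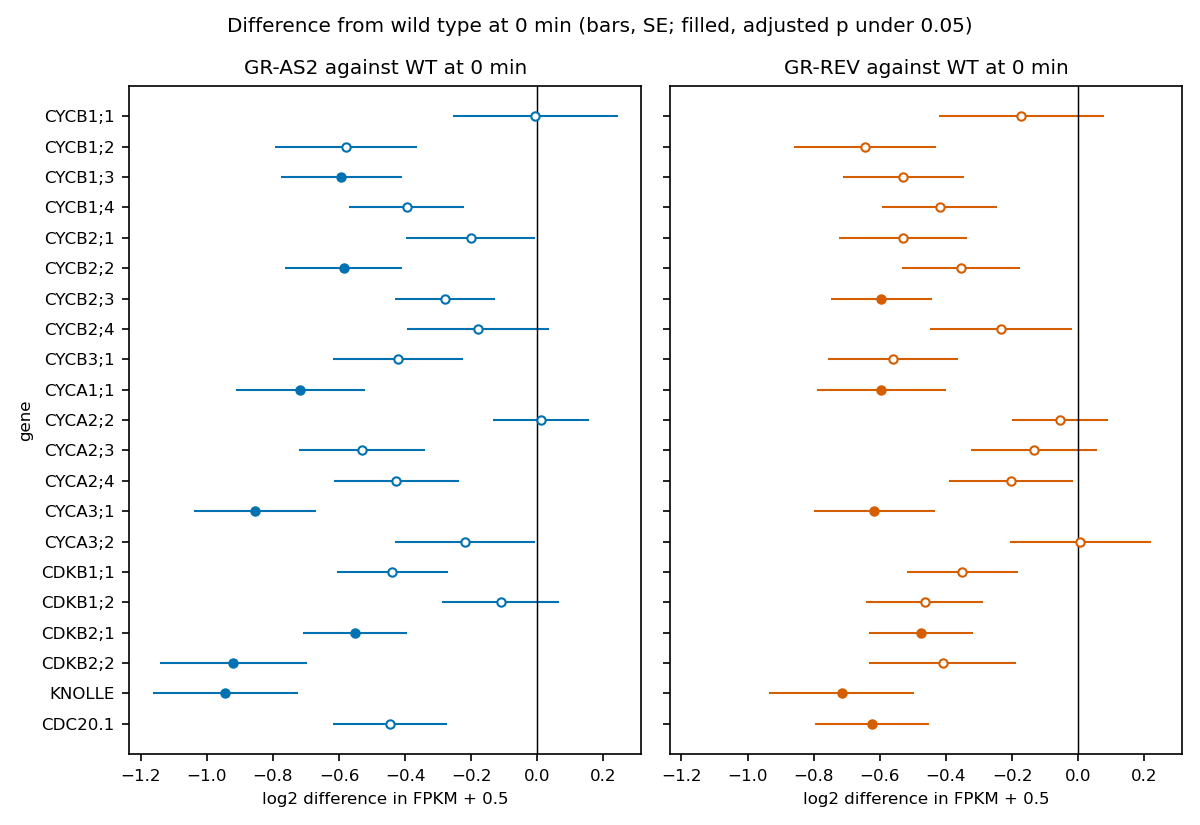
Log2 difference in FPKM + 0.5 from wild type at 0 min for the 21 A and B cyclins, CDKB kinases, KNOLLE and CDC20.1, in GR-AS2 (left) and GR-REV (right). Points are limma estimates, bars are standard errors, and filled points have an adjusted p under 0.05. In each panel 20 of 21 points lie below 0, and the point furthest below is KNOLLE in both.

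KNOLLE, the syntaxin that fuses vesicles into the cell plate, had the largest drop. WT libraries at 0 min held 17.0 to 20.22 FPKM with a median of 19.7. The GR-AS2 libraries held 12.8, 11.1 and 8.62 FPKM, all below every WT library. The GR-REV libraries held 8.62, 20.16 and 11.5 FPKM, so that 1 of them lay near the top of the WT range. KNOLLE thus differed from WT by -0.94 (SE 0.22, limma adjusted p = 0.00516) in GR-AS2 and -0.72 (SE 0.22, limma adjusted p = 0.0315) in GR-REV. KNOLLE overlaps a gene on the opposite strand, AT1G08550, over 464 bp, and strand use in the counting is not given. That neighbour was also lower, at 11.4 ± 1.89 FPKM (SD, n = 6) in WT, 6.84 ± 1.49 (SD, n = 3) in GR-AS2 and 6.89 ± 0.94 (n = 3) in GR-REV at 0 min, and its part in the KNOLLE values was not tested.

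Among the B cyclins, which bring CDKs to mitosis, all 9 had a negative difference in GR-AS2 and all 9 in GR-REV at 0 min. So did all 9 in GR-STM and 6 in GR-KAN1, with 0 called in either. The lowest and highest of the 20 group means in FPKM were, for each B cyclin, CYCB1;1 (AT4G37490) 3.80 to 7.04, CYCB1;2 (AT5G06150) 14.1 to 25.1, CYCB1;3 (AT3G11520) 2.67 to 5.60, CYCB1;4 (AT2G26760) 5.26 to 8.31, CYCB2;1 (AT2G17620) 0.63 to 1.49, CYCB2;2 (AT4G35620) 2.16 to 4.83, CYCB2;3 (AT1G20610) 1.89 to 4.11, CYCB2;4 (AT1G76310) 2.01 to 3.30 and CYCB3;1 (AT1G16330) 0.81 to 1.69. CYCB1;3 (-0.59) and CYCB2;2 (-0.59) were called in GR-AS2 and CYCB2;3 (-0.59) in GR-REV. CYCB2;3 held 1.84, 2.52 and 1.58 FPKM in GR-REV against 2.50 to 5.42 in WT, with a median of 4.23. The ranges of the 2 groups met at their edge, and the limma adjusted p was 0.00799. CYCB1;2, the most abundant B cyclin, held 15.8, 18.1 and 11.1 FPKM in GR-AS2 and 14.5, 14.5 and 13.2 in GR-REV, against 21.3 to 28.4 in WT with a median of 24.0. Neither of its groups overlapped WT, yet its adjusted p was 0.0717 in GR-AS2 and 0.0528 in GR-REV. CYCB1;1, a G2 and mitosis reporter gene, overlapped WT in both lines: its values in GR-AS2 were 7.95, 5.72 and 3.01 FPKM, which spanned the WT range of 4.42 to 7.72, and in GR-REV they were 3.67, 3.06 and 8.30.

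The 250 bases before the annotated start of each gene (TAIR10.1 sequence and annotation, from RefSeq) were searched on both strands for AACGG, the core of the mitosis-specific activator (MSA) element that MYB3R proteins are known to bind. At least 1 match was present in 6 of the 9 B cyclins, 2 of the 6 A cyclins and 10 of the 21 genes, and in 20.6% of 27443 promoters of protein-coding genes. It was also present in 4 of the 9 inhibitors and 1 of the 9 D cyclins. The next 3 sequences are those of the most abundant B cyclin and of the 2 cyclins lower in GR-REV both at 0 min and over all times, with AACGG or its reverse complement CCGTT in capitals.
CYCB1;2: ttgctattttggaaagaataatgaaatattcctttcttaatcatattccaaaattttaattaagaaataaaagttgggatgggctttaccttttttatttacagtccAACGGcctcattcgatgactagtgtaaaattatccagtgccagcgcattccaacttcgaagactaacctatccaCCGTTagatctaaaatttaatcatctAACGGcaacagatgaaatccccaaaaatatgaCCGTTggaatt
CYCB2;3: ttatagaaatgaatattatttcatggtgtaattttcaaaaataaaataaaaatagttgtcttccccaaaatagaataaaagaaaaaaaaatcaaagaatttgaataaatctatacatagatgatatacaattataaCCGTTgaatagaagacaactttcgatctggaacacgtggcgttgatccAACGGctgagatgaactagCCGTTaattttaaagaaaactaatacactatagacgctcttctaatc
CYCA1;1: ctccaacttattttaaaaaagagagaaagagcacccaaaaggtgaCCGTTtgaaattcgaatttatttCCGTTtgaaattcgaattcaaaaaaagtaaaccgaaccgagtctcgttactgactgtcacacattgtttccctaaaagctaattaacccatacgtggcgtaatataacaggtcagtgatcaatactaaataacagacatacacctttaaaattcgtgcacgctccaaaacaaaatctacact
These lie at chr5:1861704-1861953, chr1:7137829-7138078 and chr1:16777353-16777602, all on the minus strand, and hold 4, 3 and 2 matches. A match describes the letters only. CDKB2;1 and CDC20.1, which were lower in GR-REV too, have 0 matches in this window. The inhibitors KRP7 and KRP2, which were higher in GR-REV over all times, have 3 and 2. A search for TTTCCCGC, TTTGGCGC, TTTCGCGC and TTTGCCGC, forms of the E2F site of replication genes, found 0 of the 21 genes with a match and 1.41% of all promoters.

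Among the A cyclins, CYCA1;1, which peaks in G2 and mitosis, held 2.53, 2.63 and 1.83 FPKM in GR-AS2 at 0 min and 3.20, 2.38 and 2.17 in GR-REV, below the WT range of 3.56 to 7.55 (median 4.88). Its log2 difference was -0.72 (SE 0.20, limma adjusted p = 0.0148) in GR-AS2 and -0.60 (SE 0.20, limma adjusted p = 0.0474) in GR-REV. CYCA3;1, of the S-phase A cyclins, held 1.81, 1.71 and 0.89 FPKM in GR-AS2 and 1.42, 1.74 and 2.22 in GR-REV, against 2.26 to 4.82 in WT with a median of 3.47. Neither line overlapped WT, and the differences were -0.85 (limma adjusted p = 0.00295) and -0.62 (adjusted p = 0.026). The group means in FPKM ran, among A cyclins, for CYCA1;1 (AT1G44110) 2.33 to 5.76, CYCA2;2 (AT5G11300) 0.87 to 1.88, CYCA2;3 (AT1G15570) 2.24 to 4.44, CYCA2;4 (AT1G80370) 1.15 to 2.54, CYCA3;1 (AT5G43080) 1.47 to 3.77 and CYCA3;2 (AT1G47210) 8.58 to 14.5. CYCA3;2, the most abundant A cyclin, held 15.9, 7.16 and 9.14 FPKM in GR-AS2, which reached past both ends of the WT range of 7.40 to 13.8, with no call at 0 min in any line.

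The CDKB2 kinases accumulate at G2 and mitosis, and CDKB2;1 was lower in both lines and CDKB2;2 in GR-AS2. CDKB2;2 held 3.58, 3.26 and 1.19 FPKM in GR-AS2 against 3.88 to 6.66 in WT, with no overlap, and was called (-0.92, SE 0.22, limma adjusted p = 0.00661). In GR-REV it held 3.55, 5.12 and 2.79 FPKM, overlapped WT and was not called. CDKB2;1 held 7.91, 10.3 and 6.75 FPKM in GR-AS2 and 10.2, 10.02 and 6.31 in GR-REV, all below the WT range of 10.5 to 14.7 (median 12.6). It was called in both lines, at -0.55 (limma adjusted p = 0.0191) and -0.47 (adjusted p = 0.0487). Group means in FPKM ran, among kinases, for CDKA;1 (AT3G48750) 26.6 to 38.0, CDKB1;1 (AT3G54180) 4.10 to 6.32, CDKB1;2 (AT2G38620) 2.41 to 5.13, CDKB2;1 (AT1G76540) 8.31 to 14.6 and CDKB2;2 (AT1G20930) 2.68 to 7.17, and among the late mitotic genes for KNOLLE (AT1G08560) 10.8 to 26.2 and CDC20.1 (AT4G33270) 14.2 to 26.1. CDC20.1, which starts anaphase through the anaphase-promoting complex, held 13.7, 17.1 and 11.7 FPKM in GR-REV against 19.1 to 30.2 in WT, and its difference of -0.62 was called (limma adjusted p = 0.0157). In GR-AS2 it held 16.1, 19.1 and 13.1 FPKM and was not called at 0 min.

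Summed over the 21 genes, the level at 0 min was 154.3 ± 17.3 FPKM (SD, n = 6) in WT, 102.7 ± 20.0 (n = 3) in GR-AS2 and 105.3 ± 11.8 (n = 3) in GR-REV. WT replicates 1 to 3 lay at 138.2 to 142.5 and replicates 4 to 6 at 158.0 to 182.9, so all 6 transgenic libraries, at 79.7 to 118.9, were below both kinds of WT library. In each GR-REV library 19 of the 21 genes were below the WT mean, and in the GR-AS2 libraries 19 to 21 were. So were 18, 16 and 20 in WT replicates 1, 2 and 3 themselves, and 18, 18 and 19 in the GR-STM libraries. Against the mean of WT replicates 1 to 3 alone, the counts were 20, 17 and 18 in GR-REV and 17, 18 and 20 in GR-AS2. They were 14, 15 and 18 in GR-STM and 11, 12 and 9 in WT replicates 1 to 3. The counts of called genes depend on the WT libraries used. Without WT replicates 4 to 6 the members called fell from 8 to 0 in GR-AS2 and from 7 to 1 in GR-REV. Without GR-AS2 0 min replicate 3, the lowest library, GR-AS2 also gave 0.

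**Figure D2:**
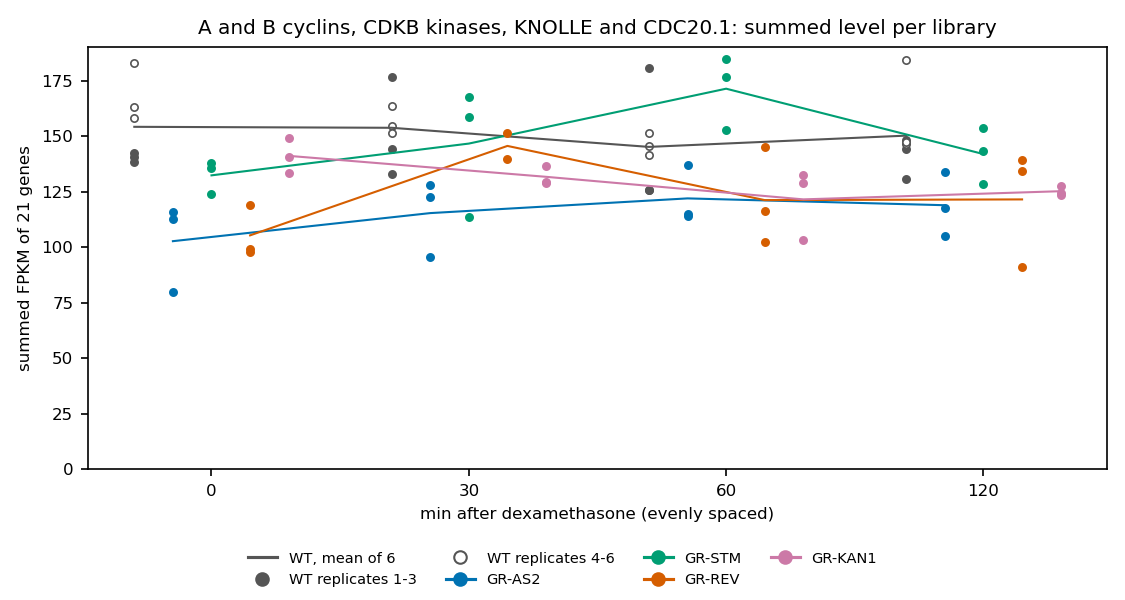
Summed FPKM of the 21 A and B cyclins, CDKB kinases, KNOLLE and CDC20.1 in each library (points) by time after dexamethasone (times evenly spaced on the axis), with group means joined by lines, where filled grey points are WT replicates 1 to 3 and open points WT replicates 4 to 6. At 0 min the GR-AS2 and GR-REV libraries, at 79.7 to 118.9, lie below all 6 WT libraries, and the GR-STM mean is highest at 60 min, at 171.4.

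Stomatal lineage markers were, as a sum, also lower at 0 min in GR-AS2 and GR-REV. None of SPCH, MUTE, FAMA, TMM and EPF2 was at 0 in every library of a group. Their summed FPKM was 36.1 to 55.4 in WT at 0 min, 21.4 to 29.4 in GR-AS2 and 23.5 to 29.7 in GR-REV. All 4 of SPCH, MUTE, TMM and EPF2 were called lower in GR-AS2, as were MUTE and FAMA in GR-REV. The summed root meristem markers PLT1, PLT2, WOX5, SHR and SCR overlapped WT, at 14.7 to 16.5 in GR-AS2 and 15.4 to 17.0 in GR-REV against 15.6 to 23.4. Of 4 shoot meristem markers only KNAT1 and CUC2 were analysed here, and their sum overlapped WT in both lines. The summed green leaf markers varied from 6293 to 69277 FPKM within WT at 0 min alone and were 2907 to 14550 in GR-AS2. At 0 min 1 of the 4 genes was listed at 0 in every library of GR-AS2, of GR-STM and of GR-KAN1. So was 1 in GR-REV at 30, 60 and 120 min, whereas no gene was at 0 throughout any WT group. The summed differentiated root markers COBL9, EXPA7 and CASP1 overlapped WT, at 50.1 to 91.8 against 35.1 to 75.3, although EXPA7 was called higher in GR-AS2. In GR-STM the summed stomatal lineage markers at 120 min were 22.3 to 26.1 against 33.8 to 75.7 in WT. SPCH was called lower in that line over all times (-0.47, limma adjusted p = 0.0129), where 0 of the 21 genes were called. The part of cell composition in the cyclin values was not tested.

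At 0 min GR-STM and GR-KAN1 had 0 members called by limma, with 2 members each at an unadjusted p under 0.05, and 0.33% and 0.742% of all genes called. The median of the 21 genes was -0.13 in GR-STM and -0.01 in GR-KAN1.

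The average over the 4 times, which includes the 0 min libraries described above, was lower in GR-AS2 for many members. Of the 40 genes 16 were called lower and 1 higher, against 9.01% and 8.6% of all genes, and 11 of the 16 were among the 21 genes of replication and mitosis. KNOLLE (-0.56), CYCA1;1 (-0.51), CDKB2;2 (-0.46), CYCA3;1 (-0.40), CDC20.1 (-0.39), CYCB1;2 and CYCB1;3 (both -0.35) and CDKB2;1 (-0.33) were among them. Without WT replicates 4 to 6 the limma adjusted p of CYCB1;2 was 0.0555. CDC20.1 held 11.9 to 19.1 FPKM in the 12 GR-AS2 libraries against 17.1 to 30.2 in the 24 of WT. With the 0 min libraries left out, an alternative added after the data were seen, the calls fell from 17 to 6. KNOLLE, CYCA1;1 and CDC20.1 were among those that kept theirs. CDKB2;2, CYCA3;1, CYCB1;2, CYCB1;3 and CDKB2;1 lost theirs, with limma adjusted p-values of 0.0954 to 0.222. Over the same libraries 4 of the 5 stomatal lineage markers were called lower, TMM (-0.58), EPF2 (-0.53), MUTE (-0.52) and SPCH (-0.51), and their summed level was 19.5 to 33.3 FPKM against 24.4 to 75.7 in WT. The green leaf marker LHCB2.1 (-1.10) and the root marker SHR (-0.35) were also called lower and EXPA7 higher (0.57), and the part of cell composition in the members called was not tested. No member was called in GR-AS2 for a change from 0 min beyond that of WT: the counts were 0 of 40 by limma at 30, 60 and 120 min, with 2, 7 and 2 members at an unadjusted p under 0.05, and 0%, 0.0103% and 0% of all genes called.

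GR-REV had 6 genes lower over all times, against 10.1% of all genes, and all 6 were A or B cyclins. They were CYCB2;3 (-0.43), CYCB2;1 (-0.36), CYCB3;1 (-0.35), CYCB1;3 (-0.34), CYCA2;2 (-0.32) and CYCA1;1 (-0.30). The last was the least stable, with a limma adjusted p of 0.0501 without WT replicates 4 to 6, 0.0505 with only the groups compared and 0.273 without the 0 min libraries, and with its call kept in 23 of 35 fits that left out 1 library. CYCB1;3, CYCB2;1 and CYCB3;1 also lost their calls without the 0 min libraries, with limma adjusted p-values of 0.0882, 0.0797 and 0.117. The call of CYCB3;1 was kept in 34 of 35 fits that left out 1 library. CYCB2;3 held 1.53 to 3.01 FPKM in the 11 GR-REV libraries, with a median of 2.28, and 2.23 to 5.82 in WT, with a median of 3.84. CYCA2;2, whose family restrains endoreduplication, held 0.77 to 1.53 FPKM against 1.02 to 2.69. The ranges overlapped for both genes, and the limma adjusted p-values were 0.000134 and 0.00263. KNOLLE and CDC20.1, called in GR-REV at 0 min, had an adjusted p of 0.0891 or more over all times. Of the 5 stomatal lineage markers FAMA (-0.81, limma adjusted p = 2.84e-08) and SPCH (-0.35) were called lower in GR-REV over all times, and their summed level was 23.5 to 39.3 FPKM. KNAT1 (-0.33) and COBL9 (-0.42) were also called lower and WOX5 (0.44) higher, and their part in these values was not tested.

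After dexamethasone the summed level of the 21 genes in GR-REV was 145.6 ± 8.2 FPKM (SD, n = 2) at 30 min, 121.2 ± 21.9 (n = 3) at 60 min and 121.5 ± 26.7 (n = 3) at 120 min. Both libraries of 30 min lay inside the WT range of 132.9 to 176.5 at that time, whereas those of 0 min had all been below WT. In GR-KAN1 the sum was 141.2 ± 8.0 FPKM at 0 min and 121.5 ± 16.1 at 60 min (n = 3 each), and the libraries of 60 min, at 103.0 to 132.6, overlapped those of WT at 125.7 to 180.9. At 120 min the 3 GR-KAN1 libraries, at 123.7 to 127.4, lay below all 6 of WT, at 130.9 to 184.4, and in each of them 18 to 21 of the 21 genes were below the WT mean. In WT replicates 1, 2 and 3 of that time 16, 11 and 19 were. Against the mean of these 3 WT libraries alone, the counts were 19, 20 and 16 in GR-KAN1 and 10, 5 and 18 in the 3 themselves. The change beyond WT at 120 min was below 0 for 18 of the 21, with a median of -0.11 against 0.02 for all genes, and none of the 21 was called by limma or had an unadjusted p under 0.05.

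In GR-STM the summed level of the 21 genes was 132.4 ± 7.45 FPKM (SD, n = 3) at 0 min, 146.7 ± 29.1 at 30 min, 171.4 ± 16.7 at 60 min and 142.0 ± 12.7 at 120 min. At 60 min the median change beyond WT was 0.39 for the 21 genes and 0.00 for all genes, with 20 of the 21 above 0. Values of like size were found for the same genes in GR-AS2 at 60 min, at 0.39 with 17 of the 21 above 0, and in GR-REV at 30 min, at 0.40 with 19 above 0, and the lines share their WT libraries. KNOLLE held 16.9, 14.3 and 16.4 FPKM at 0 min and 21.7, 29.0 and 27.9 at 60 min, while WT spanned 11.7 to 26.3 at 60 min. The GR-STM groups did not overlap each other, but the change beyond WT of 0.83 (SE 0.29) had a limma adjusted p of 0.201. CDC20.1 had its highest group mean, 26.1 FPKM, in the same group. The smallest limma adjusted p among the members was 0.118, for CYCA3;1. The calls by limma were 0 of 40 at 30, 60 and 120 min, with 2, 14 and 2 members at an unadjusted p under 0.05, where 0.144%, 0.876% and 0.819% of all genes were called.

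**Figure D3:**
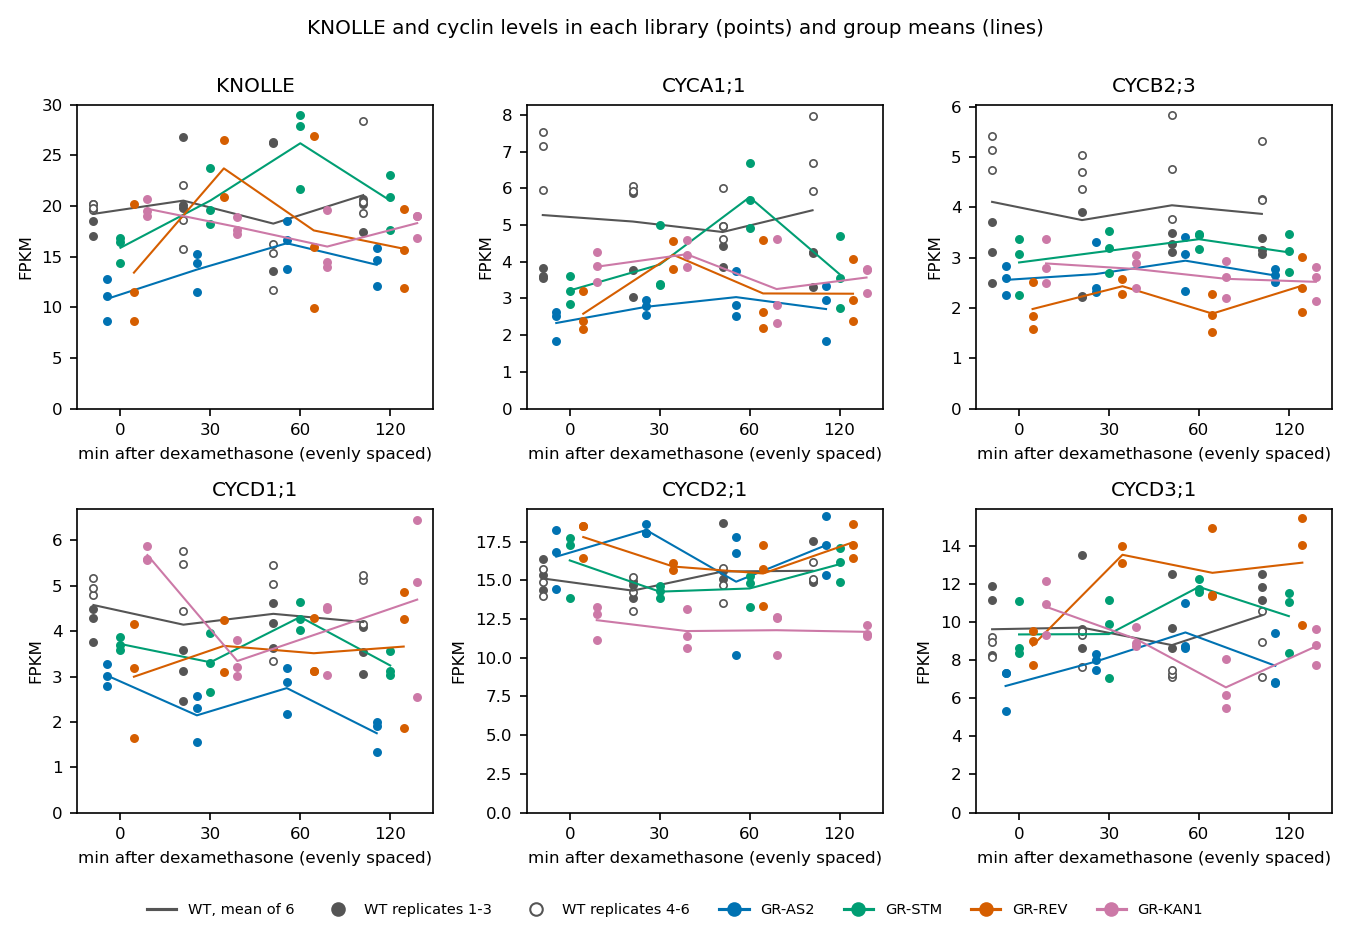
FPKM of KNOLLE and 5 cyclins, named above each panel, in each library (points) by time after dexamethasone (times evenly spaced on the axis), with group means joined by lines, where open points are WT replicates 4 to 6. CYCD2;1 in GR-KAN1 lies at 10.2 to 13.3 at all times, with WT at 13.0 to 18.7, and CYCD1;1 in GR-AS2 lies at 1.34 to 3.28, with WT at 2.45 to 5.78.

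D cyclins bring growth and hormone signals to CDKA;1 at the G1 to S step. CYCD3;1, which cytokinin is known to induce, held 7.30, 7.29 and 5.32 FPKM in GR-AS2 at 0 min against 8.17 to 11.9 in WT (median 9.09). The groups did not overlap and the log2 difference was -0.69 (SE 0.16, limma adjusted p = 0.00472). Over all times CYCD3;1 was lower in GR-AS2 (-0.42, limma adjusted p = 0.000432) and in GR-KAN1 (-0.29, adjusted p = 0.0175), and its difference in GR-REV was 0.13 with an adjusted p of 0.28. In GR-REV the values went from 8.997, 9.52 and 7.76 FPKM at 0 min to 13.1 and 14.0 at 30 min and 11.4, 14.9 and 11.4 at 60 min. These groups did not overlap, yet the change beyond WT had an adjusted p of 0.757 at 30 min and 0.179 at 60 min.

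Across groups the mean FPKM of the D cyclins ran for CYCD1;1 (AT1G70210) 1.75 to 5.68, CYCD2;1 (AT2G22490) 11.7 to 18.2, CYCD3;1 (AT4G34160) 6.56 to 13.5, CYCD3;2 (AT5G67260) 7.71 to 17.7, CYCD3;3 (AT3G50070) 6.14 to 11.0, CYCD4;1 (AT5G65420) 2.15 to 3.79, CYCD4;2 (AT5G10440) 0.84 to 1.85, CYCD5;1 (AT4G37630) 2.40 to 3.71 and CYCD6;1 (AT4G03270) 0.97 to 2.28. CYCD1;1 had the widest spread of group means among the D cyclins, at 3.25-fold. The 12 GR-AS2 libraries held 1.34 to 3.28 FPKM with a median of 2.44, and the 24 WT libraries 2.45 to 5.78 with a median of 4.36. Its lower level in GR-AS2 over all times was -0.56 (SE 0.12, limma adjusted p = 0.000632) and was called under every alternative. CYCD3;2 (-0.49) and CYCD6;1 (-0.47), the latter known for formative divisions in the root, were also called lower in GR-AS2. Both lost the call without the 0 min libraries, with limma adjusted p-values of 0.0738 and 0.18. The call of CYCD6;1 was kept in 31 of 36 fits that left out 1 library. CYCD6;1 overlaps AT4G03260 on the opposite strand over 847 bp. That neighbour stood at 12.4 ± 2.97 FPKM (SD, n = 6) in WT at 0 min, and its part in the CYCD6;1 values was not tested.

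CYCD2;1, the most abundant D cyclin, was lower in GR-KAN1 over the 4 times. The 12 GR-KAN1 libraries held 10.2 to 13.3 FPKM with a median of 11.8, while the 24 WT libraries held 13.0 to 18.7 with a median of 14.97. The ranges met only between 13.0 and 13.3 FPKM. The log2 difference over all times was -0.37 (SE 0.06, limma adjusted p = 1.1e-05), and the change beyond WT was 0.03, -0.11 and -0.07 at 30, 60 and 120 min. GR-KAN1 had 4 members lower and 0 higher over all times, against 6.38% and 5.23% of all genes: CYCD2;1, CYCD3;1, KRP1 and CYCA3;2 (-0.36). The last lost its call without WT replicates 4 to 6.

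Other D cyclin calls were CYCD5;1, lower in GR-STM over all times (-0.30, limma adjusted p = 0.0135), and CYCD4;2, higher in GR-REV (0.37, adjusted p = 0.0177). The former held 2.17 to 3.18 FPKM in GR-STM and 1.55 to 4.27 in WT, and the latter held 0.91 to 2.31 in GR-REV and 0.32 to 2.45 in WT, so both groups lay inside the WT range. Without the code series term the limma adjusted p of CYCD5;1 in GR-STM was 0.228, and that of CYCD3;1 in GR-KAN1 was 0.238. CDKA;1, the kinase partner of D cyclins, was called in no comparison. Its 24 WT libraries spanned 23.2 to 44.2 FPKM, and each transgenic line lay between 21.4 and 44.5.

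**Figure D4:**
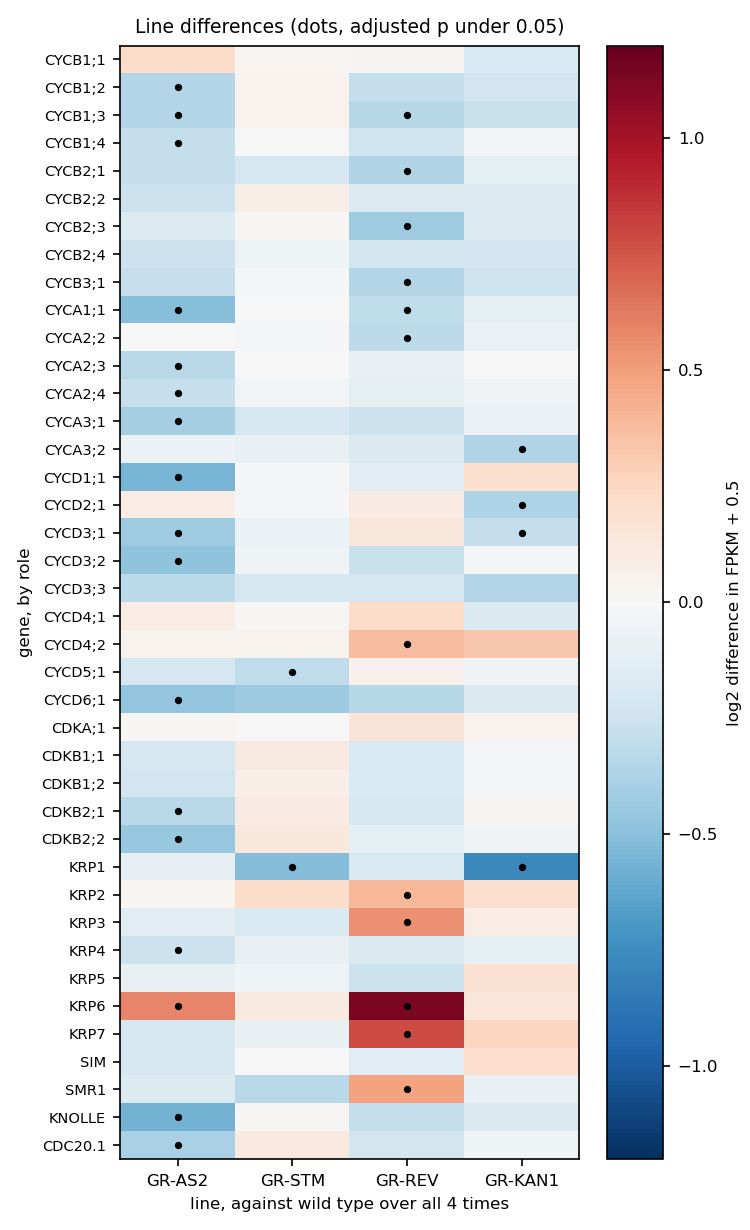
Log2 difference in FPKM + 0.5 from wild type over all 4 times for the 40 genes in each line, red higher and blue lower, with dots where the adjusted p was under 0.05. Dots in GR-AS2 are mostly blue cyclins and kinases, 5 of the 6 red dots in GR-REV are inhibitors, and GR-STM has 2 dots, KRP1 and CYCD5;1.

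The inhibitors moved most in GR-REV. Over all times 5 of the 9 were called higher and 0 lower in that line, out of 6 members called higher, next to 12.6% of all genes. The median difference was 0.40 for the 9 inhibitors, -0.22 for the 21 genes of replication and mitosis and 0.00 for all genes. The 5 were KRP6 (1.13), KRP7 (0.78), KRP3 (0.55), SMR1 (0.48) and KRP2 (0.40). Across groups the mean FPKM of the inhibitors ran for KRP1 (AT2G23430) 2.62 to 17.4, KRP2 (AT3G50630) 11.4 to 27.9, KRP3 (AT5G48820) 1.32 to 3.90, KRP4 (AT2G32710) 4.72 to 7.14, KRP5 (AT3G24810) 1.299 to 2.85, KRP6 (AT3G19150) 4.24 to 13.9, KRP7 (AT1G49620) 2.11 to 7.66, SIM (AT5G04470) 17.8 to 36.4 and SMR1 (AT3G10525) 8.24 to 22.7. Their courses differed: KRP6 was high from 0 min, while the GR-REV values of KRP2 and KRP7 at 0 min lay below or within the WT range and were higher at later times.

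**Figure D5:**
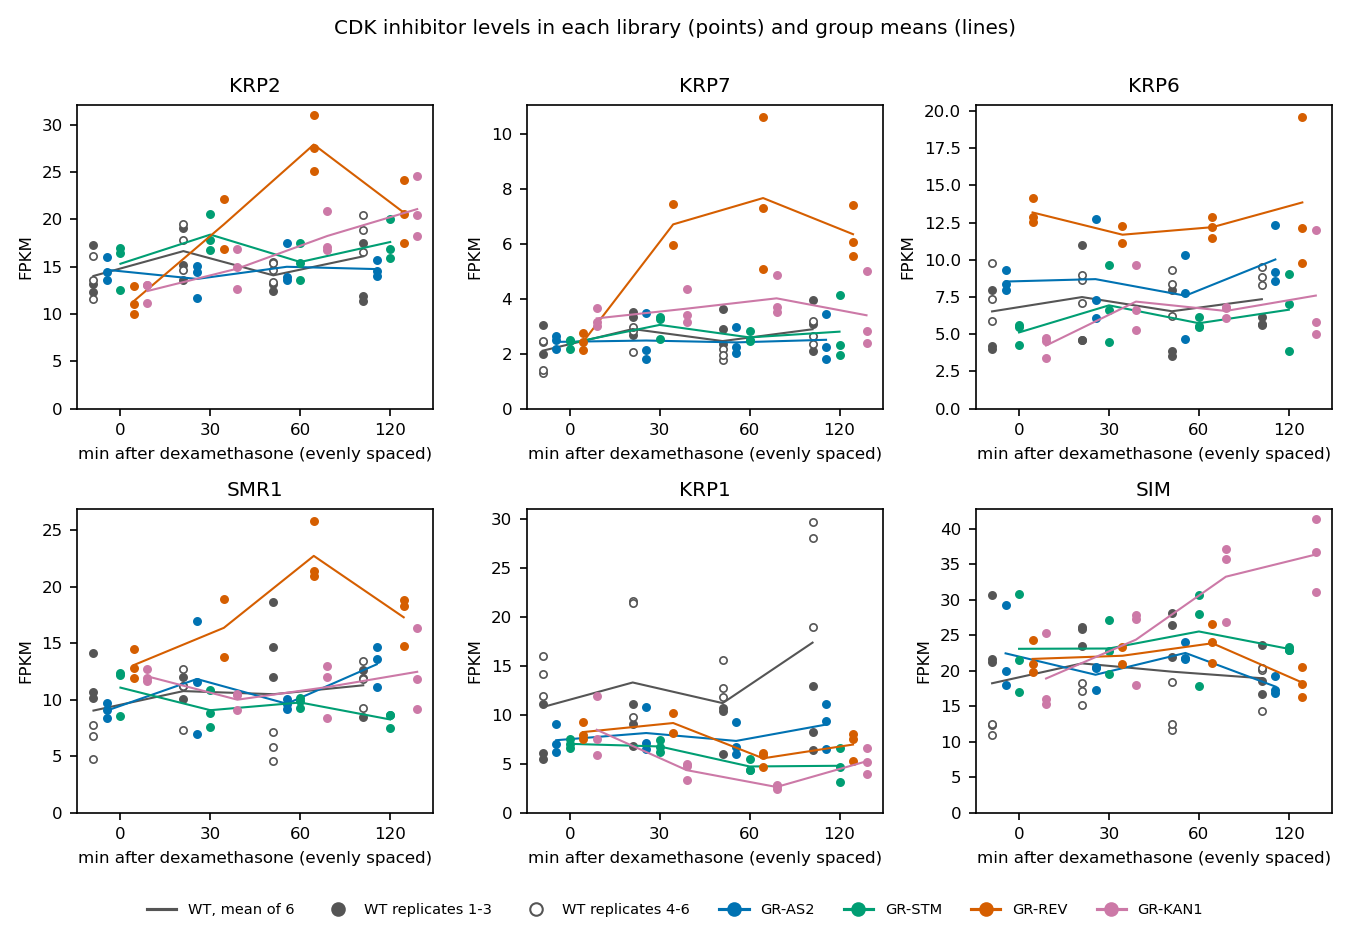
FPKM of the inhibitors KRP2, KRP7, KRP6, SMR1, KRP1 and SIM in each library (points) by time after dexamethasone (times evenly spaced on the axis), with group means joined by lines, where open points are WT replicates 4 to 6. KRP2 in GR-REV rises to 25.1 to 31.1 at 60 min, above all other libraries of that time, KRP1 in GR-KAN1 falls to 2.38 to 2.77 at 60 min, and SIM in GR-KAN1 reaches 31.1 to 41.4 at 120 min.

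KRP2, an inhibitor of D cyclin kinases known to be repressed by auxin in the root, held 10.01, 13.0 and 11.1 FPKM in GR-REV at 0 min. It held 22.1 and 16.8 at 30 min, 31.1, 25.1 and 27.5 at 60 min, and 24.1, 20.6 and 17.4 at 120 min. WT held 11.6 to 17.2 at 0 min (median 13.4), 12.4 to 15.5 at 60 min (median 14.0) and 11.3 to 20.4 at 120 min (median 17.0). The 60 min libraries of GR-REV lay above every other library of that time, whereas at 120 min 1 of them lay inside the WT range. The change beyond WT was 1.25 (SE 0.19, limma adjusted p = 3.03e-05) at 60 min, a 2.37-fold rise, and 0.84 (SE 0.21, limma adjusted p = 0.0267) at 120 min. The value at 60 min was called in all 9 alternatives and in all 18 fits that left out 1 library. The value at 120 min was called in 11 of 18 such fits, and without WT replicates 4 to 6 its adjusted p was 0.0658.

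KRP2 was not called in GR-KAN1. The libraries of that line held 13.1, 13.1 and 11.1 FPKM at 0 min, 20.9, 16.7 and 17.1 at 60 min, and 20.4, 18.2 and 24.6 at 120 min. The change beyond WT at 120 min was 0.74 (SE 0.21), with a limma adjusted p of 0.0705.

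KRP7 is known, with KRP6, as a target of ubiquitin-dependent turnover in pollen development. It held 2.43, 2.75 and 2.13 FPKM in GR-REV at 0 min, 7.44 and 5.96 at 30 min, 5.07, 10.6 and 7.31 at 60 min, and 6.05, 7.42 and 5.56 at 120 min. WT held 1.29 to 3.06 FPKM at 0 min (median 2.21) and 1.76 to 3.64 at 60 min (median 2.26). All 8 later GR-REV libraries lay above every WT library of any time, the highest of which was 3.94. The change beyond WT was 1.01 (SE 0.30, adjusted p = 0.459) at 30 min, 1.23 (SE 0.28, limma adjusted p = 0.00835) at 60 min and 1.01 (SE 0.29, adjusted p = 0.0995) at 120 min. Without GR-REV 60 min replicate 2, the highest library, the adjusted p at 60 min was 0.0895, and without WT replicates 4 to 6 it was 0.0998. The level over all times, 0.78 above WT (SE 0.12, limma adjusted p = 4.54e-07), was called under every alternative and every leave-one-out fit.

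Together these 2 genes were the only members of 40 called in GR-REV at 60 min, where 0.721% of all genes were called higher. KRP2 was the only member at 120 min, with 0.464% of all genes called higher, and at 30 min 0 were called by limma, with 10 members at an unadjusted p under 0.05 and 0.0412% of all genes called.

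The KRP2 promoter was searched for ATGAT, the core of the pseudopalindrome that class III HD-ZIP proteins such as REVOLUTA are known to bind. It is shown because KRP2 had the smallest adjusted p among changes from 0 min, with ATGAT or its reverse complement ATCAT in capitals.
KRP2: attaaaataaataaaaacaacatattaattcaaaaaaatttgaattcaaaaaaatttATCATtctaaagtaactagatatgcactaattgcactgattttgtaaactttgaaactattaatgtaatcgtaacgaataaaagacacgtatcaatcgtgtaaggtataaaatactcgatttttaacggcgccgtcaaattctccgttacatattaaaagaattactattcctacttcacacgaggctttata
This window lies at chr3:18800056-18800305 on the plus strand and holds 1 match. The KRP7 window holds 0. Of the 9 inhibitors 6 hold at least 1, and 57.8% of all promoters do.

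KRP6 was higher in GR-REV at 0 min and over all times. Its libraries held 12.9, 12.5 and 14.1 FPKM at 0 min, and over all times 9.80 to 19.6 with a median of 12.3, while WT held 3.52 to 11.0 with a median of 7.21. At 0 min the groups did not overlap, since the highest WT library was 9.81. The log2 difference was 1.31 (SE 0.28, limma adjusted p = 0.000941) at 0 min and 1.13 (SE 0.16, limma adjusted p = 7.5e-08) over all times, a 2.19-fold higher level. The change from 0 min beyond WT was -0.39, -0.09 and -0.24 at the later times, with adjusted p-values of 0.935 or more. KRP6 was also the member called higher in GR-AS2 over all times (0.58, limma adjusted p = 0.00507), where the libraries held 4.69 to 12.7 FPKM, a range that overlapped that of WT. That call was lost without the code series term.

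SMR1, also known as LOSS OF GIANT CELLS FROM ORGANS, drives endoreduplication in sepal giant cells. It held 14.5, 12.8 and 11.9 FPKM in GR-REV at 0 min and 21.4, 25.8 and 20.9 at 60 min, when WT held 4.61 to 18.6 with a median of 9.56. The groups at 60 min did not overlap, and the change beyond WT was 0.65 (SE 0.26, limma adjusted p = 0.307). Over all times the difference was 0.48 (SE 0.11, limma adjusted p = 0.000702). SMR1 held 18.9 and 13.8 FPKM in GR-REV at 30 min and 18.3, 18.8 and 14.8 at 120 min, when WT reached 12.7 and 13.4. KRP3, the inhibitor with the lowest WT mean, held 2.54, 2.76 and 1.42 FPKM in GR-REV at 0 min, 3.51 and 3.27 at 30 min and 1.73, 6.196 and 2.47 at 60 min, where 1 library stood above the others. It held 3.59, 4.95 and 3.17 FPKM at 120 min against 1.71 to 3.68 in WT, and its difference over all times was 0.55 (SE 0.14, limma adjusted p = 0.00309).

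KRP1, an inhibitor known to act on CDKA and D cyclins and to promote endoreduplication when abundant, was lower in GR-KAN1 and GR-STM. In GR-KAN1 it held 11.9, 7.51 and 5.92 FPKM at 0 min, 4.93, 3.31 and 4.77 at 30 min, 2.70, 2.38 and 2.77 at 60 min, and 5.20, 3.92 and 6.61 at 120 min. WT held 5.46 to 16.03 at 0 min and 5.97 to 15.6 at 60 min, so the 60 min groups did not overlap. The change beyond WT at 60 min was -1.57 (SE 0.31, limma adjusted p = 0.00217), a 2.97-fold fall, and KRP1 was the only member called there, with 0.84% of all genes called lower. Without WT replicates 4 to 6, whose KRP1 values were higher, it was -1.73 with an adjusted p of 0.0136. Without the code series term the value was the same and the adjusted p was 0.135. At 30 min, where 0 members were called by limma, 2 had an unadjusted p under 0.05 and 0.067% of all genes were called, the change was -0.85 (adjusted p = 0.989), and at 120 min it was -0.77 (adjusted p = 0.426).

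Over all times KRP1 was 0.77 below WT in GR-KAN1 on the log2 scale (log2 difference -0.77, SE 0.13, limma adjusted p = 1.22e-05). In GR-STM the 12 libraries held 3.10 to 7.47 FPKM with a median of 6.40, and the difference was -0.52 (SE 0.13, limma adjusted p = 0.00648). WT replicates 1 to 3, of the same code series, held 5.46 to 12.9 FPKM with a mean of 8.68, which overlapped GR-STM. The change from 0 min beyond WT was -0.06, -0.63 and -0.72 at the later times, with limma adjusted p-values of 0.486 or more. GR-STM had 2 members lower over all times and 0 higher, against 1.67% and 2.41% of all genes.

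SIM, the founding SIAMESE inhibitor that keeps leaf hairs from dividing, held 15.4, 15.99 and 25.4 FPKM in GR-KAN1 at 0 min, 27.8, 18.0 and 27.3 at 30 min, 35.7, 37.2 and 26.9 at 60 min, and 31.1, 41.4 and 36.7 at 120 min. WT held 11.0 to 30.7 at 0 min (median 16.9) and 14.3 to 23.7 at 120 min (median 19.3), so all 3 libraries of GR-KAN1 at 120 min were above WT. The change beyond WT at 120 min was 1.09 (SE 0.26, limma adjusted p = 0.0216), and SIM was the only member called there, with 0.283% of all genes called higher. Without WT replicates 4 to 6 it was 1.26 (limma adjusted p = 0.022). It was called in 12 of 18 fits that left out 1 library, and had an adjusted p of 0.0525 after quantile normalization, 0.135 with the replicate number as a block in place of the code series and 0.372 without the code series term. SIM overlaps AT5G04475 on the opposite strand over 338 bp, and SMR1 overlaps AT3G10527 over 375 bp. Neither neighbour was analysed here.

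The windows before KRP1 and SIM were searched for GNATAA and GNATAT, forms of the element known from KANADI1 binding, because these genes changed in GR-KAN1. Matches on either strand are in capitals.
KRP1: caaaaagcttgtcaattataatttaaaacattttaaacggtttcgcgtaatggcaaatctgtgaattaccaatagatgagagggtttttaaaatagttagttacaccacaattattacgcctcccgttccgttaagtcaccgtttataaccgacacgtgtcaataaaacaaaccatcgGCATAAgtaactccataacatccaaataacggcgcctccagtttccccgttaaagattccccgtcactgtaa
SIM: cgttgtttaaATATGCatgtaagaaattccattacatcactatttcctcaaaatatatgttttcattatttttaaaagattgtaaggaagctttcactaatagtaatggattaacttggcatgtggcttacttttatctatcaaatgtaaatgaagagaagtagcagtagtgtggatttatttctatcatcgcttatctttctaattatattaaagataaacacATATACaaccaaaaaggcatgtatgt
They lie at chr2:9978091-9978340 and chr5:1267417-1267666, both on the minus strand, with 1 and 2 matches. The element is common, since 76.0% of all promoters hold at least 1. The KRP1 window also holds 6 matches to AACGG, written in small letters here.

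Of the 40 genes 13 overlap a neighbouring gene by 40 to 926 bp, 12 of them on the opposite strand, among them CYCD1;1, CYCD6;1, CDKB2;1, CDKB2;2 and KRP4. KRP4 was called lower in GR-AS2 over all times (-0.26, limma adjusted p = 0.0394). It lost the call without WT replicates 4 to 6 and without the 0 min libraries, and kept it in 23 of 36 fits that left out 1 library. KRP4 overlaps AT2G32720 over 926 bp. At 0 min that neighbour stood at 160.6 ± 83.6 FPKM (SD, n = 6) in WT and 121.0 ± 47.2 (n = 3) in GR-AS2, and its part in the KRP4 values was not tested. KRP5 was called in no comparison, and its 24 WT libraries differed by series of library code, at 1.98 ± 0.49 FPKM (SD, n = 12) in replicates 1 to 3 and 2.96 ± 0.63 in replicates 4 to 6.

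A further list of 60 genes of replication, E2F and RBR control, mitosis and other cell cycle steps was examined beside the members, and 57 of them were tested. Their calls, like those of the markers above, were not examined without WT replicates 4 to 6. In GR-AS2 at 0 min 8 were called lower and 1 higher, against 5.6% and 4.7% of all genes, among them PANS1 (-1.14), a securin-like protein, and the Aurora kinase AUR3 (-1.11), the replication clamp PCNA1 (-0.64) and AT1G10690 (-0.84). In GR-REV at 0 min 3 were called, all lower, against 2.95% of all genes, namely CDKD;3 (-0.47), CCS52B (-0.50) and AUR1 (-0.55). Over all times GR-AS2 had 12 lower and 4 higher, against 9.01% and 8.6% of all genes, with 7 of 12 genes of mitosis and cytokinesis lower and the ribonucleotide reductase gene TSO2 higher (0.55). GR-REV had 8 lower and 4 higher, against 10.1% and 12.6% of all genes, with CDC20.2 lower (-0.36) and TSO2 (0.61), RNR2A (0.24) and the E2F partner DPA (0.27) higher. GR-KAN1 had 1 lower, AT1G08180 (-0.50), and 3 higher, among them RBR1 (0.45), against 6.38% and 5.23% of all genes. Among the 14 tested genes of replication, GR-AS2 had 2 lower and 1 higher over all times.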

How the data were processed

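Transcript levels were measured in 71 RNA-seq libraries made from oligo dT-primed cDNA. Per the labels' design text, the authors deposited FPKM values with geometric normalization, made with Tophat and Cufflinks; the submitters' processing notes name TopHat2 2.0.10 and TAIR10. No source used here gives the Cufflinks version or strand use. Of 22346 entries, 14 placeholders that name no gene were left out, which leaves 22332 genes. Read depth is unknown, so no counting interval is given. No column of another sample was used (0 such columns).

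Genes with a highest group mean of at least 1 FPKM (19406) were tested in R 4.3.3 by limma 3.58.1, after log2(FPKM + 0.5), with 1 mean per group of line and time, the library code series as a term and 49 residual degrees of freedom. P-values were adjusted by Benjamini-Hochberg within each of 23 comparisons. These were WT at later times against 0 min, each line against WT at 0 min and over all 4 times, and each line's change from 0 min beyond that of WT. The fit was tested on simulated data.

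Members and gene lists were chosen with earlier results of these data known. All members are named with their range of group means; full values are given for the 16 with the smallest adjusted p and the most abundant of each role. Some others are named by choice after their values were seen. Other cell cycle genes are named where called, at most 4 a comparison. Alternatives were 2 other pseudocounts, 2 other filters, quantile normalization, no code series, the replicate number as a block, fewer samples and each library left out. Same-numbered libraries of different groups correlated at a median of 0.009 over 551 pairs, and other-numbered ones at -0.0009 over 1102. The numbers were therefore not taken to pair samples, although a low median does not exclude pairing of some libraries.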

Additional observations from a re-analysis of the deposited data

Results flagged for a closer look

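Among 80 groups of 6 libraries examined (20 genes in WT at 4 times), 4 held 1 library far from the other 5. About 1 group in 20 is picked out by chance under this criterion. CYCD3;1 was 13.5 FPKM in WT 30 min replicate 1, with the next highest at 9.61. KNOLLE was 28.4 FPKM in WT 120 min replicate 4, with the next at 20.7. KRP3 was 3.14 FPKM in WT 0 min replicate 4, with the next at 2.36, and 0.81 FPKM in WT 60 min replicate 2, with the next lowest at 1.84.

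In 5 cases a line's change from 0 min differed from that of WT by the limma test of the difference itself. On the log2 scale these were KRP7 (1.23) and KRP2 (1.25) in GR-REV at 60 min, KRP2 in GR-REV at 120 min (0.842), KRP1 in GR-KAN1 at 60 min (-1.57) and SIM in GR-KAN1 at 120 min (1.09).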

How the results depend on the processing

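None of the 55 called differences reversed in any alternative; 18 kept their call in every alternative, 28 in every fit with 1 library left out and 17 in both. All 55 were kept with a pseudocount of 1 or 0.1, 52 without a filter, 54 after quantile normalization, 47 without the code series term, 34 without WT replicates 4 to 6 and 37 with only the groups compared. At a minimum of 5 FPKM all 40 that could be tested were kept. The cause of each shift below was not tested. Without the code series term the members called were 16 in GR-AS2, 1 in GR-STM and 12 in GR-REV at 0 min, 0 in GR-REV at 120 min and in GR-KAN1 at 60 and 120 min, and over all times 27 in GR-AS2, 11 in GR-STM, 27 in GR-REV and 18 in GR-KAN1. Without WT replicates 4 to 6 they were 0 in GR-AS2 and 1 in GR-REV at 0 min, and 1 and 0 in GR-REV at 60 and 120 min. With only the groups compared they were 0 in GR-AS2 and 2 in GR-REV at 0 min, 1 in GR-STM at 60 min, and 1 and 0 in GR-REV at 60 and 120 min. Quantile normalization gave 11 in GR-REV at 0 min and 4 in GR-STM over all times. A minimum of 5 FPKM gave 1 in GR-STM and 6 in GR-REV over all times. Without the 0 min libraries, an alternative chosen after seeing the data, GR-AS2 had 6 and GR-KAN1 had 9 over all times.

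With the replicate number as a block in place of the code series, 49 of 55 calls were kept, and the count was 0 in GR-REV and in GR-KAN1 at 120 min. The numbers were not taken to pair the samples.

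With each library left out in turn, the members called ranged from 0 (without GR-AS2 0 min replicate 3) to 15 (without replicate 1) in GR-AS2 at 0 min and from 2 (without replicate 3) to 9 (without replicate 2) in GR-REV at 0 min. They ranged from 1 to 2 in GR-REV at 60 min, 0 to 1 in GR-REV at 120 min, 1 to 2 in GR-KAN1 at 60 min and 0 to 2 in GR-KAN1 at 120 min. Over all times they ranged from 11 to 22 in GR-AS2, 2 to 3 in GR-STM, 10 to 17 in GR-REV and 3 to 7 in GR-KAN1. Read depth is unknown, so what depth limits cannot be given.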
